A study of Mus musculus with 2 samples.

Results

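The autosomal probes of a mouse comparative genomic hybridisation array that carried no gene name were examined. They were the probes whose name in the scanner files was only a genomic position, on chromosomes 1 to 19, and they are called intergenic probes here. Of 42404 probes on the array 3542 had no gene name, and 3257 of these lay on an autosome. Of these, 33 on stretches of chromosomes 10 and 17 were left out by the selection rule, which left 3224 intergenic probes, or 7.96% of the 40521 autosomal probes. Another 214 unnamed probes lay on the X chromosome and 71 on contigs that the files call random.

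Intergenic DNA holds most of a mammalian genome's transposable elements together with regulatory sequence far from genes, and probes of this kind reach into long stretches without genes. Dnmt3L is a cofactor of the de novo DNA methyltransferases. In the mouse male germ line it is needed for methylation of retrotransposons and of paternally imprinted regions. Comparative genomic hybridisation labels 2 DNA samples with different dyes and hybridises them to 1 array, so that the ratio of the dyes at a probe reports the relative number of copies of that sequence.

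The study asked whether a father heterozygous for Dnmt3L affects the genome of offspring that inherit the normal allele. There were 2 arrays, and every mouse on them was labelled a Dnmt3L+/+ female. On the adult array, tail DNA of a wildtype offspring of a heterozygous sire was labelled with Cy3, and tail DNA from an unrelated C57BL/6 colony with Cy5. On the embryo array, whole-embryo DNA at E10.5 from the offspring of a heterozygous sire was labelled with Cy5, and DNA from a control cross with Cy3. The dyes were thus opposite on the 2 arrays, and values on them are given as in tail DNA (adult) and in embryo DNA. The strain labels of the embryos differ between fields, which name either an F1 of FVB/NJ and C57BL/6 or C57BL/6 alone. The labels do not say whether several animals went into 1 DNA sample. Each stage had 1 array, so there was no replicate, and a ratio on 1 array compares the DNA samples on it rather than the genotypes of the sires.

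All ratios are log2 of offspring over control. Unless an alternative is named, they were made from the dye-normalised processed signals and centred on the median of all probes of the array. A ratio of 1 would be a doubling and -1 a loss of 1 of 2 copies. All 3224 intergenic probes gave a ratio in tail DNA and 3220 in embryo DNA, and 3096 were well above background in both channels of both arrays. None was saturated. The probes were 45 to 60 bases long, and 2954 of them had 60 bases. Their sequences were not analysed here. Positions are printed as the scanner files list them, and the sources used here name no genome build for them.

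The medians of the intergenic and the gene-named probes lay close together on both arrays. Because each array was centred on its own median, a median near 0 is no measurement of its own, and the difference between the 2 kinds of probe has no replicate. On the adult array their median was 0.0129 with an SD over probes of 0.355 (n = 3224), and 48.1% of them lay below 0. On the embryo array the median was 0.0100 with an SD of 0.294 (n = 3220), and 48.2% lay below 0. Gene-named autosomal probes had medians of 0.0105 (SD 0.319, n = 36845) and 0.0102 (SD 0.337, n = 36826). Intergenic minus gene-named, the medians differed by 0.0024 in tail DNA and by -0.00015 in embryo DNA. With the background modelled by normexp, described beside the calls, these differences were 0.017 and -0.032. The spread itself differed in opposite directions, since the SD of the intergenic probes was 1.11 times that of the gene-named probes in tail DNA and 0.873 times in embryo DNA. The middle of the distributions was similar on both arrays, with quartiles of -0.17 and 0.19 for adult and -0.16 and 0.17 for embryo intergenic probes. The tails were not: the 99th percentile was 1.04 in tail DNA, against 0.76 for gene-named probes, and 0.80 in embryo DNA, against 1.09.

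**Figure D1:**
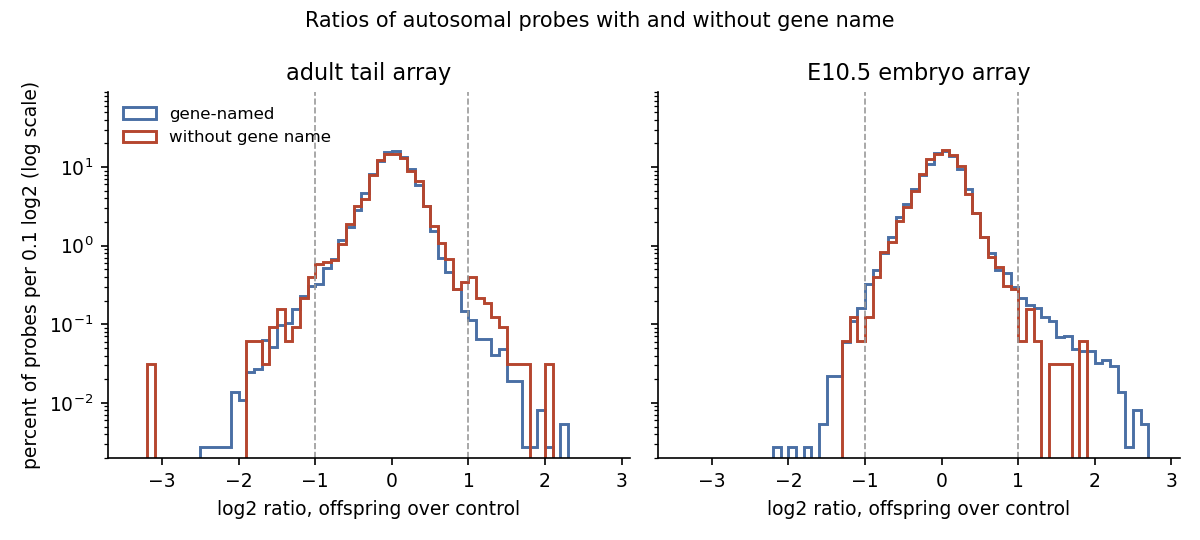
Percent of probes (log axis) by log2 ratio of offspring over control in steps of 0.1, for gene-named and intergenic autosomal probes on each array, with dashed lines at -1 and 1. The centres coincide, while intergenic probes exceed gene-named probes above 1 in tail DNA and fall below them above 1 in embryo DNA.

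The intergenic probes were also dimmer. Signals are given after background subtraction and before dye normalisation, so their quotient differs from the ratio by the overall balance of the dyes. The median signal of the intergenic probes in tail DNA was 36.9 for the offspring and 50.4 for the control channel, or 0.871 and 0.879 of the gene-named medians. On the embryo array it was 175 and 95.2, or 0.895 and 0.893 of the gene-named medians. The share well above background in both channels was 96.2% in tail DNA, against 97.4% for gene-named probes, and 99.7% in embryo DNA, against 99.9%. The scanner software replaced a signal by a noise floor for 3.75% of intergenic probes in tail DNA and 0.280% in embryo DNA. Its own error model gave a single intergenic ratio a median standard error of 0.278 (adult) and 0.255 (embryo) on the log2 scale. This is an estimate from 1 array and holds no difference between animals.

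Unnamed probes on the X chromosome, set beside the autosomal values for scale, were low on both arrays. Their median was -0.84 in tail DNA and -0.87 in embryo DNA (SD 0.57 and 0.33, n = 214). Gene-named X probes had medians of -0.86 and -0.85. The ratio was lower on X in the offspring on both arrays although all the animals were labelled females. Among the unnamed X probes 76 (35.5%) lay at or below -1 in tail DNA and 70 (32.7%) in embryo DNA.

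Single intergenic probes past a ratio of 1 or -1 were few and made up different shares on the 2 arrays. On the adult array 39 intergenic probes (1.21%) lay at or below -1, where 1.1% of all autosomal probes did. At or above 1 there were 37 (1.15%), where 0.454% of all autosomal probes did; the gene-named share was 0.394%, or 145 probes. On the embryo array 8 (0.248%) lay at or below -1, against 0.37% of all autosomal probes, and 14 (0.435%) at or above 1, against 1.19%. The higher calls were thus more frequent than the background among adult ratios and less frequent among embryo ratios. With 1 array per stage these shares have no replicate check. Normexp background correction models the background, in place of the software's subtraction, and adds an offset of 50. It was run on the raw mean signals without the software's dye normalisation, and each array was then centred on its median. With it, 0% of intergenic probes passed 1 or -1 in tail DNA, and in embryo DNA 0.0932% were low and 0.280% high. The offset draws the ratios of dim probes towards 0 by construction, so these counts are no check of the calls. The shares of all autosomal probes with normexp were not computed.

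The adult calls had low signals. Of the 39 low probes 13 were not well above background, and of the 37 high probes 11 were not. The low probes had a median offspring signal of 4.32 and a median control signal of 15.3, and the high probes 8.45 and 4.20, far below the 36.9 and 50.4 of all intergenic probes. When autosomal probes were divided into 4 classes of equal size by mean signal, 3.76% of the dimmest intergenic probes in tail DNA (n = 985) lay at or above 1, against 1.55% of the dimmest gene-named probes. In the 3 brighter classes no intergenic probe did. Among probes well above background in tail DNA, the share at or above 1 was 0.838% for intergenic and 0.298% for gene-named probes. The part of the dim signal in this excess was not tested. In embryo DNA 12 of the 14 high probes and all 8 low probes were well above background. From the dimmest to the brightest class, 0.782%, 0%, 0.13% and 0.759% of intergenic probes were high in embryo DNA, against 2.09%, 1.16%, 0.855% and 0.727% of gene-named probes. The intergenic share was thus lower in the 3 dimmer classes and close to the gene-named share in the brightest.

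**Figure D2:**
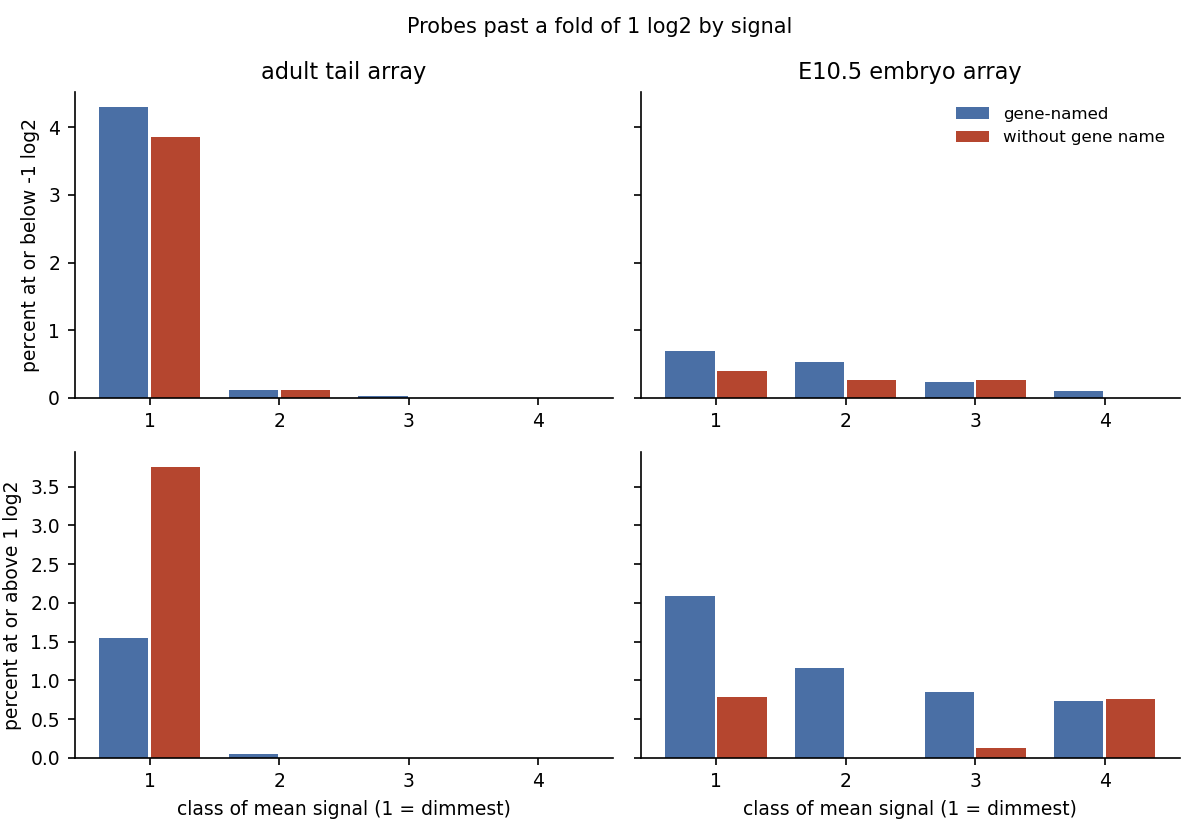
Percent of autosomal probes at or below -1 (top) and at or above 1 (bottom) in each of 4 classes of mean signal, from dimmest to brightest, for gene-named and intergenic probes on each array. Adult calls lie almost wholly in the dimmest class, where 3.76% of intergenic probes were high against 1.55% of gene-named probes.

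Probes past 1 or -1 on the adult array mostly lay near 0 or on the other side of it on the embryo array. The 39 probes low in tail DNA had a median of 0.20 in embryo DNA, and the 37 high ones -0.15. Of these, 4 of the low and 1 of the high probes passed 0.3 in the same direction in embryo DNA. Gene-named probes were similar. Among them 41 of 403 low and 9 of 145 high probes did so, with embryo medians of 0.10 and -0.20. Over 3220 intergenic probes the ratios of the 2 arrays had a Pearson correlation of -0.232 and a Spearman correlation of -0.273, and 39.8% had the same sign. Gene-named probes gave -0.254, -0.312 and 39.0%. With normexp, which here leaves out the dye normalisation, the Pearson correlation was stronger, at -0.580 for intergenic and -0.552 for gene-named probes. These correlations are a description: each probe shares its sequence and base composition across the arrays, and the dyes were swapped between offspring and control.

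Probes at or below -0.5 on both arrays numbered 9 (0.280%), where 0.195% of all autosomal probes met the same rule. Probes at or above 0.5 on both numbered 3 (0.0932%), where 0.0939% did. No intergenic probe passed 1 in the same direction on both arrays, where 0.00247% of all autosomal probes did in each direction. With normexp none passed 0.5 on both, and the share over all autosomal probes was not computed. Opposite values were more frequent: 29 intergenic probes (0.901%) were at or above 0.5 in tail DNA and at or below -0.5 in embryo DNA, and 15 (0.466%) were the other way round. Among all autosomal probes the shares were 0.652% and 0.467%, so that opposite values outnumbered like ones there too. X probes are not in these shares, and 72.5% of the gene-named X probes lay at or below -0.5 on both arrays. In limma's moderated test of the mean ratio over both arrays, 0 of 3220 intergenic probes passed an adjusted p of 0.05, nor did any of all 42362 probes (0%). That test takes the 2 arrays as replicates, although they differ in stage, tissue, control and dye order. Its p-values are thus no measure of the spread between animals of 1 stage. At an unadjusted p under 0.05 there were 50 intergenic probes, or 1.55%, where 4.53% of all probes and 1.35% of autosomal probes passed. The smallest adjusted p of an intergenic probe was 0.220.

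**Figure D3:**
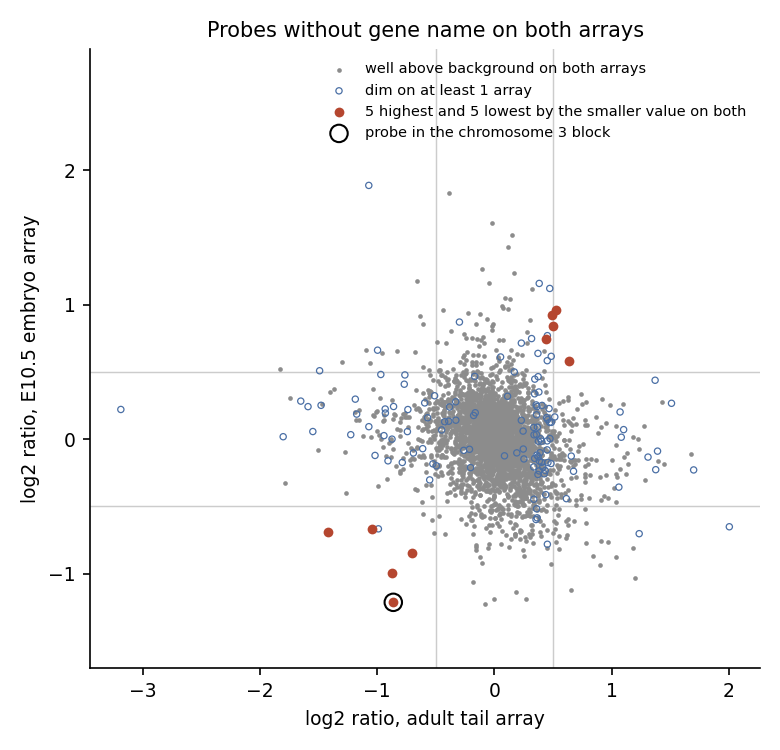
Log2 ratio of each intergenic probe on the adult (x) and embryo (y) array, with lines at -0.5 and 0.5, dim probes as open circles and the 5 lowest and 5 highest by the smaller of both values in red. Most probes far from 0 on 1 axis lie near 0 on the other, and the ringed probe on chromosome 3 lies at -0.86 and -1.21.

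The intergenic probe with the lowest p over both arrays lay in a low stretch of chromosome 3. A_53_P100178, at chr3:141758543-141758602, had a ratio of -0.86 in tail DNA and -1.21 in embryo DNA, with error-model standard errors of 0.23 and 0.28. Its signals were 31.2 (offspring) and 73.2 (control) in tail DNA and 142 and 177 in embryo DNA, well above background in all 4 measurements. Both values were low (limma unadjusted p = 0.00159, adjusted p = 0.220). It was the only intergenic probe between the outermost probes of Bmpr1b, a bone morphogenetic protein receptor, and Pkn2, a protein kinase. The 22 gene-named probes between them, which include the Gbp1 and Gbp2 probes of interferon-induced GTPases, had a median of -0.86 (SD 0.40) in tail DNA and -0.83 (SD 0.52) in embryo DNA. On the adult array 19 of them lay at or below -0.3, and 18 did in embryo DNA.

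The nearest gene-named probes placed the intergenic probe inside the low run on both sides. Gtf2b, a general transcription factor of RNA polymerase II, lay 22.4 kb to the left with -0.87 and -1.1, and Pkn2 lay 20.8 kb to the right with -1.11 and -0.35. The next intergenic probes on either side were not low on both arrays. To the left A_53_P163743, at chr3:140805156-140805215 and 45.4 kb from Bmpr1b, had -0.033 in tail DNA and -0.59 in embryo DNA. To the right A_53_P118455, at chr3:143213660-143213719 and 41.9 kb from Lmo4, had -0.16 and 0.23. No intergenic probe lay between these bounds other than A_53_P100178.

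**Figure D4:**
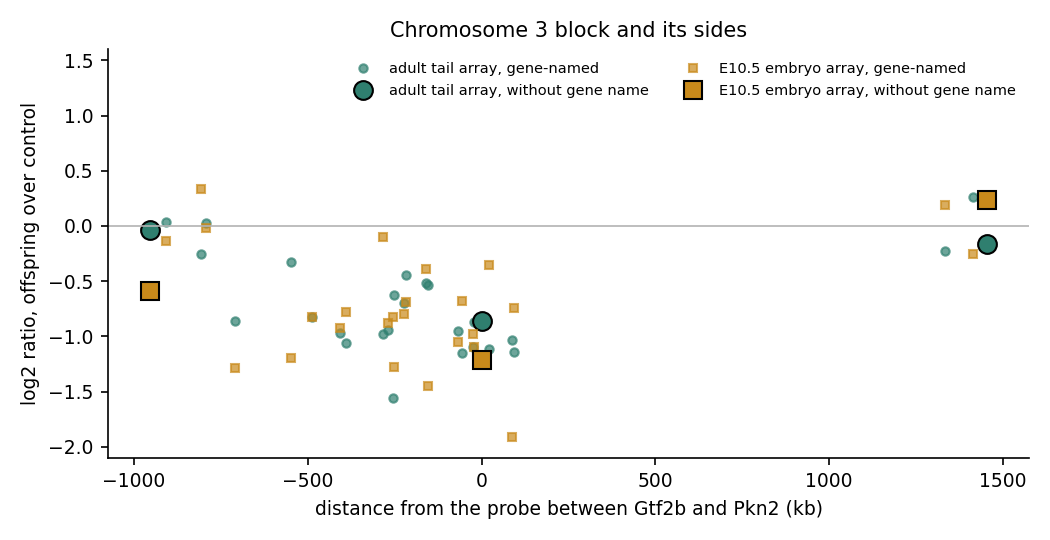
Log2 ratios on both arrays of intergenic (large symbols) and gene-named (small symbols) probes of chromosome 3 by distance in kb from the intergenic probe between Gtf2b and Pkn2. That probe lies at -0.86 and -1.21 among low gene-named probes, and the next intergenic probe to the right lies at -0.16 and 0.23.

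The other 4 intergenic probes that were lowest on both arrays had no gene-named neighbour past -0.5 on both. A_53_P156060, at chr17:24127601-24127660, had -0.88 and -1.0, with adult signals of 4.21 (offspring) and 9.66 (control) and an adult error of 0.95, so that its adult value did not exceed its own error. With normexp its adult value was 0.18. Luc7l, a splicing factor gene 56.8 kb to its left, had 0.025 and 0.060. A_53_P109403, at chr5:71774745-71774804, had -1.42 and -0.69, with adult signals of 6.81 and 24.6. To its left Slain2 (named 5033405K12Rik in the files), a microtubule regulator, had -0.43 and -0.37, and to its right Fryl (2510002A14Rik) had 1.1 and 0.051. A_53_P144739, at chr14:54084826-54084885, had -1.05 and -0.67. Its adult value was 0.026 with normexp. It lay 1.12 kb from Cab39l with -0.23 and 0.49 and 11.1 kb from Cdadc1 with -0.27 and 0.30. A_53_P107548, at chr13:99877083-99877142, had -0.70 and -0.85, with an adult value of 0.061 with normexp, and the nearest right-hand gene Srek1 (Sfrs12), which encodes a splicing regulator, had 0.090 and -0.46.

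The probes highest on both arrays were closer to 0 or less precise. A_53_P148539, at chr5:69666210-69666269 between the GABA-A receptor subunit genes Gabrg1 and Gabra2, had 0.63 and 0.59, with error-model standard errors of 1.33 and 1.77, larger than the ratios, and its embryo value was -0.36 with normexp. A_53_P129136, at chr4:41207362-41207421 between the water channel genes Aqp7 and Aqp3, had 0.50 (error 0.41) and 0.84 (error 0.31). The Aqp7 probe had -0.24 and 0.42 and the Aqp3 probe -0.039 and -0.61, so neither was higher on both. A_53_P154660, at chr16:97408345-97408404, had 0.53 and 0.96, with an embryo value of -0.16 with normexp, while C2cd2 (5830404H04Rik), 23.3 kb away, had 0.28 and -0.62. A_53_P117880, at chr6:94947452-94947511 and 42.6 kb from the mitochondrial carrier gene Slc25a26, had 0.93 in embryo DNA (error 0.33) and an adult ratio no larger than its error of 0.51. A_53_P155373, at chr5:113934186-113934245, had 0.44 (error 0.27) and 0.75 (error 0.25) and was the brightest of the 5, with adult signals of 87.3 and 93.9.

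Among probes well above background on both arrays, the 5 lowest and 5 highest adult ratios had neighbours that did not share their value. The lowest was A_53_P122518, at chr11:25293595-25293654, with -1.83 (error 0.69) from signals of 4.83 and 22.9, and it had 0.52 in embryo DNA. With normexp it had -0.019 and 0.0065. Next came A_53_P105593, at chr1:87390904-87390963, with -1.79 in tail DNA and -0.33 in embryo DNA. It lay between Ngef, a guanine nucleotide exchange factor gene with -0.32 in tail DNA, and the sialidase gene Neu2 with 0.33. A_53_P132609, at chr4:87556099-87556158 and 32.6 kb from the type I interferon gene Ifna12, had -1.75 (error 0.36) and 0.31. A_53_P141355, at chr3:122194820-122194879 and 26.9 kb from the RNA methyltransferase gene Mettl14 (G430022H21Rik), had -1.51 (error 0.86) and -0.082. A_53_P119324, at chr11:83696830-83696889 and 9.36 kb from the RNA helicase gene Ddx52, had -1.47 (error 0.35) and 0.26. All 5 were low in tail DNA, and none of them lay below -0.5 in embryo DNA. With normexp, the adult values of A_53_P105593, A_53_P132609 and A_53_P141355 were 0.012, 0.0024 and 0.066. The 10 gene-named probes beside the 5 lowest ranged from -0.46 to 0.56 in tail DNA, and none passed 1 or -1. The offspring signals of the 5 lowest were 3.83 to 13.7 and their control signals 15.4 to 51.0, where the medians of all intergenic probes were 36.9 and 50.4.

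At the other end A_53_P175646, at chr13:55994939-55994998 and 54.2 kb from the proteoglycan gene Spock1, had 1.68 in tail DNA and -0.11 in embryo DNA. Its error was 1.23 and its adult signals 9.52 (offspring) and 4.19 (control). A_53_P132032, at chr3:125799689-125799748 between the kinase gene Camk2d and the ankyrin gene Ank2, had 1.43 and 0.27, and its embryo value was -0.27 with normexp. A_53_P130492, at chr2:88754652-88754711 between the olfactory receptor genes Olfr1217 and Olfr1219, had 1.29 (error 1.01) and -0.31. A_53_P146170, at chr2:126304760-126304819 and 19.2 kb from the ion channel gene Trpm7, had 1.45 (error 0.98) and -0.19. A_53_P117961, at chr14:68886712-68886771 between Sucla2 and the serotonin receptor gene Htr2a, had 1.4 (error 1.2) and -0.16. All 5 were high in tail DNA, and 4 of them lay below 0 in embryo DNA. The control signals of the 5 highest were 3.82 to 6.25, and their neighbours ranged from -0.39 to 0.37.

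Among probes well above background on both arrays, the 5 highest embryo ratios had offspring signals of 50.5 to 529. The intergenic median in embryo DNA was 175. Without this filter the highest embryo ratio was 1.89. The highest of the 5 was A_53_P113447, at chr8:109915959-109916018 between Hydin, a gene of motile cilia, and Vac14, a gene of phosphoinositide metabolism. It had 1.83 (error 0.27) from signals of 431 (offspring) and 65.1 (control), and -0.39 (error 0.19) in tail DNA. Hydin had 0.25 and Vac14 -0.013 in embryo DNA. A_53_P175455, at chr6:58081595-58081654, had 1.61 in embryo DNA and -0.022 in tail DNA, and the nearest right-hand gene, the vomeronasal receptor Vmn1r26 (V1rc17), had 0.22 in embryo DNA. A_53_P176171, at chr13:56534240-56534299, had 1.52 and an adult value of 0.15. A_53_P156290, at chr1:95011121-95011180, had 1.43 (error 0.88) from signals of 50.5 and 10.2, an adult value of 0.12, and an embryo value of -0.24 with normexp.

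One embryo extreme lay beside a gene-named probe that was also high. A_53_P113864, at chr2:181031539-181031595, had 1.26 (error 0.25) in embryo DNA from signals of 529 and 119, and -0.10 in tail DNA. The Stmn3 probe, for a stathmin family member that regulates microtubules, lay 0.068 kb away and had 1.68 in embryo DNA and -0.10 in tail DNA. Rtel1, a DNA helicase gene 26.7 kb away on the other side, had -0.17 in embryo DNA and 0.36 in tail DNA.

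Among probes well above background on both arrays, the 5 lowest embryo ratios stood apart from their neighbours except on chromosome 3. A_53_P159174, at chr4:102568895-102568954, had -1.23 (error 0.30) from signals of 113 and 141, with -0.082 in tail DNA. A_53_P146369, at chr9:97965545-97965604, had -1.19 and an adult value of 0.27, and the synaptic calsyntenin gene Clstn2, 218 kb away, had 0.088 in embryo DNA. A_53_P146334, at chr14:69990077-69990136, had -1.19 with -0.0016 in tail DNA, and Cog3, a gene of Golgi trafficking, had 0.0083 in embryo DNA. A_53_P145325, at chr13:91435090-91435149 and 108 kb from the phosphodiesterase gene Pde8b, had -1.14 with an error of 1.18 and an adult value of 0.18.

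No window of 10 intergenic probes reached the threshold for a shift on either array. The 3224 probes were grouped into 311 windows of 10 successive probes along each chromosome, with a median span of 6279 kb. None had a median at or past -0.3 or 0.3, and alternatives gave between 0 and 7 such windows of 10 in 1 direction on 1 array. For windows of 10 autosomal probes of any kind, the background was 0.347% low and 0.272% high in tail DNA and 0.322% low and 0.272% high in embryo DNA. Window medians of intergenic probes ran from -0.29 to 0.29 in tail DNA and from -0.28 to 0.28 in embryo DNA, with SDs of 0.0997 and 0.0983. Windows of 10 gene-named probes, which span 336 kb in tail DNA, reached -0.99. The low stretch of chromosome 3 holds 1 of the intergenic probes, so that it enters a window of 10 with 1 value.

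The 4 most extreme windows were not extreme on the other array or in the gene-named probes inside them. The lowest adult window, at chr13:22103844-22640987, had a median of -0.29 (SD 0.28) with 7 of 10 probes below 0, and it lay among vomeronasal receptor genes of the V1rh and V1ri families. Its embryo median was 0.0086, and the 5 gene-named probes inside it had an adult median of 0.11. The highest adult window, at chr2:125711591-130089603, had 0.29 (SD 0.60), an embryo median of -0.072 and a gene-named median of 0.041 over 140 probes. The lowest embryo window, at chr8:111400539-117101691, had -0.28 with an adult median of -0.0021. The highest, at chr10:44379516-52196245, had 0.28 with an adult median of -0.082.

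Chromosome medians of intergenic probes ranged from -0.052 (chromosome 18) to 0.049 (chromosome 16) in tail DNA and from -0.071 (chromosome 17, n = 83) to 0.053 (chromosome 9) in embryo DNA. The SD of the 19 medians was 0.0262 and 0.0300, against 0.0060 and 0.0110 for gene-named probes, which are far more numerous. No chromosome was outermost in the same direction on both arrays. The number of intergenic probes per chromosome ran from 81 on chromosome 19 to 356 on chromosome 2. Their share of a chromosome's probes was lowest, at 5.63%, on chromosome 17.

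**Figure D5:**
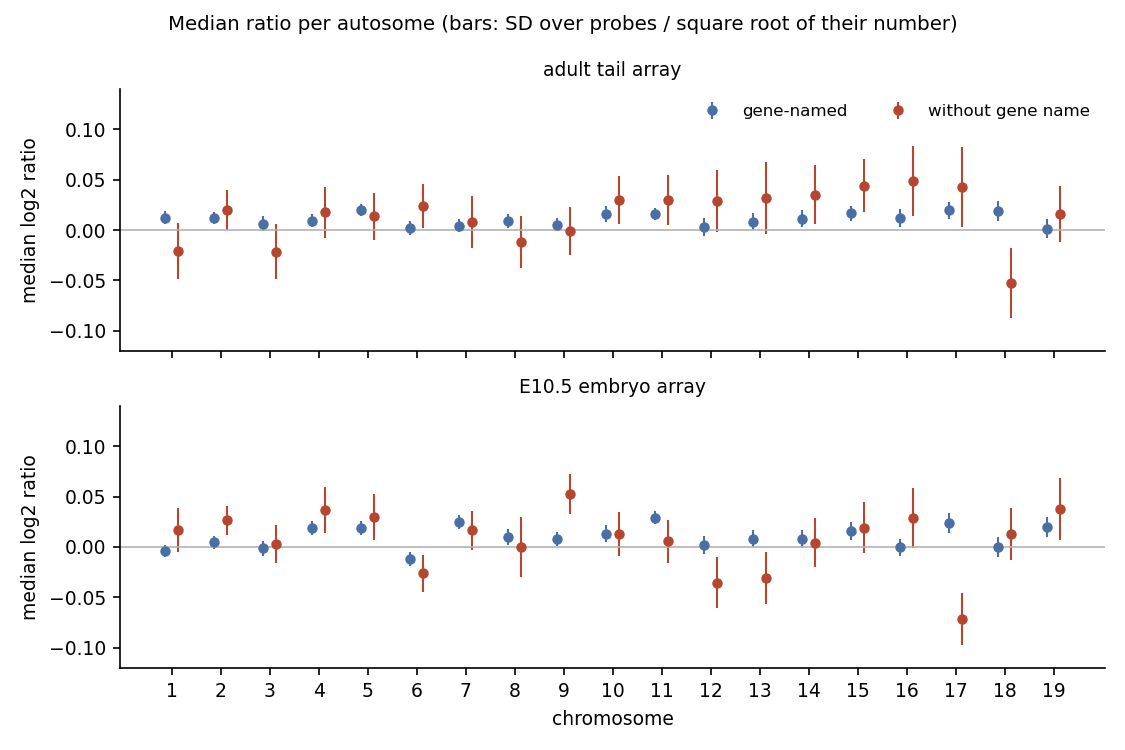
Median log2 ratio of gene-named and intergenic probes on each autosome for both arrays, with bars of the SD over probes divided by the square root of their number. Intergenic medians lie between -0.052 and 0.049 in tail DNA and between -0.071 and 0.053 in embryo DNA.

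The intergenic probes lay a median of 24.9 kb from the nearest gene-named probe, with quartiles of 9.04 and 60.1 kb and a farthest distance of 1939 kb. None of the 3218 flanked on both sides lay between probes of the same gene name, which 8.31% of gene-named probes did. The intergenic probes were selected by their lack of a gene name, so this 0 may follow from how probes were named. The embryo median was lower among probes farther from a gene-named probe, up to 250 kb. Probes within 1 kb (n = 29) had medians of -0.026 in tail DNA and 0.037 in embryo DNA. Probes 1 to 10 kb from a gene-named probe (n = 843) had 0.033 and 0.035, those at 10 to 50 kb (n = 1376) had 0.0079 and 0.014, those at 50 to 250 kb (n = 913) had 0.0079 and -0.021, and those at 250 kb or more (n = 63) had -0.051 and 0.0069. The median control signal in embryo DNA over the same 5 classes was 89.1, 107, 97.4, 85.0 and 79.1, and in tail DNA 47.2, 57.9, 50.1, 43.9 and 47.2. From the dimmest to the brightest of the 4 signal classes, the embryo median rose from -0.057 to 0.074 for intergenic probes. For gene-named probes it rose from -0.031 to 0.070. The part of the signal in the ratios was not tested, and with 1 array the difference between distances has no replicate.

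The ratios of neighbouring probes were most correlated at the shortest distances in embryo DNA. For the 29 intergenic probes within 1 kb of a gene-named probe, the embryo ratios of the pair had a Pearson correlation of 0.54 and the adult ratios 0.082. The 29 include A_53_P113864 beside Stmn3, with 1.26 and 1.68 in embryo DNA, the only 1 of them at or above 1. A correlation without that pair was not computed, so 0.54 may rest largely on it. At greater distances the embryo correlations ran from -0.046 to 0.063. For successive intergenic probes under 1 kb apart (27 pairs) the correlation was 0.42 in embryo DNA and -0.10 in tail DNA, and for the 297 pairs 1 to 10 kb apart it was 0.12 and 0.0084. The pairs share an array, a labelling and often base composition.

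Long stretches without a gene-named probe held a small share of the intergenic probes. There were 277 gaps of at least 1 Mb between gene-named probes, of which 140 held an intergenic probe, 221 in all and at most 7 in 1 gap. These 221 had medians of -0.028 (SD 0.35) in tail DNA and -0.00034 (SD 0.30) in embryo DNA. On the adult array 2 of them lay at or below -1 and 2 at or above 1, and in embryo DNA 0 and 2. The shares over all autosomal probes were 1.1%, 0.454%, 0.37% and 1.19% in the same order. The longest gap, at chr14:74125211-81247744, spanned 7.12 Mb and held 1 intergenic probe, with 0.18 and 0.067.

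Clusters of chemosensory receptor genes, which vary in copy number between mouse strains, held some of the intergenic probes. The matching share of gene-named probes was not computed. Probes with an olfactory receptor (Olfr) probe on both sides numbered 155, or 4.81%, with 65 on chromosome 2 and 27 on chromosome 7. Their median was -0.025 (SD 0.35) in tail DNA and 0.062 (SD 0.28) in embryo DNA, while the 640 Olfr probes themselves had -0.025 and 0.0018. On the adult array 2 of the 155 lay at or below -1 and 3 at or above 1, and in embryo DNA 1 and 0, where the shares over all autosomal probes were 1.1%, 0.454%, 0.37% and 1.19%. Between vomeronasal receptor (V1r) probes lay 28 intergenic probes, with medians of -0.030 (SD 0.28) and 0.11 (SD 0.25), and none passed 1 or -1. The 57 V1r probes had -0.017 and -0.020. In embryo DNA the intergenic probes of both groups had higher medians than the receptor probes around them, and this difference was not tested.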

How the data were processed

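The 2 arrays were 2-colour Agilent comparative genomic hybridisations labelled with Agilent's genomic DNA kit, per the labels' protocols. Scanner intensity values and log10 ratios came from Agilent Feature Extraction 9.1.1.1, per the file headers, with its background subtraction and dye normalization, and the error quoted is the log10 ratio error of the deposited files turned to log2. The deposited value table held the same log10 ratios to within 0.0005, and was an alternative. Control spots (1030 of 44050) and outlier spots (8 adult, 34 embryo) were left out, spots of a probe were averaged, ratios were turned to offspring over control as log2 and each array was centred on the median of its probes. Background-subtracted intensity values of the deposited files are printed as signals. Of the probes, 308 were spotted 3 times, with a median SD of 0.194 (adult) and 0.0651 (embryo), none of them intergenic.

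Both arrays were fitted together with limma 3.58.1 in R 4.3.3 over 42362 probes (mean ratio against 0, lmFit and eBayes, Benjamini-Hochberg over all), and other values were computed with Python 3.11.15, pandas 2.3.3 and numpy 2.4.6. The fit took the 2 stages as 1 group. It was tested on simulated data with independent noise on the 2 arrays. The measured ratios were negatively correlated between arrays, a setting that the simulation did not cover. A probe was called past 1 log2 on 1 array, past 0.5 on both, and a window of 10 past 0.3. Probes named in the text were the intergenic probes around the chromosome 3 stretch and the nearest on each side, and, among probes well above background on both arrays, the 5 highest and 5 lowest on each array and the 5 highest and 5 lowest by the smaller value on both, of which some are described; the extreme windows were named after their values were seen. Members and lists were chosen with earlier results of these data known. Current gene symbols came from RefSeq. The number of arrays, with no replicate, limits the precision, as does signal close to background. Alternatives were normexp with an offset of 50 and without dye normalisation, loess, the value table, and other thresholds and window sizes. Further ones were a filter on dim probes, a distance minimum of 50 kb, the left-out stretches kept and limma's trend.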

Additional observations from a re-analysis of the deposited data

Results flagged for a closer look

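There were 4 named intergenic probes past 0.3 in opposite directions in tail DNA and on the embryo array. Each difference was not tested because a stage has 1 array. Among all 3220 intergenic probes 126 (3.91%) were past 0.3 in tail DNA and past -0.3 in embryo DNA. The other way round there were 72 (2.24%). The shares over all autosomal probes were 3.90% and 2.96%, so such probes were no more frequent among the intergenic ones by a clear margin. A_53_P122518 on chromosome 11 had -1.83 in tail DNA and 0.52 in embryo DNA, and -0.019 and 0.0065 with normexp. A_53_P132609, near Ifna12 on chromosome 4, had -1.75 and 0.31, and 0.0024 and -0.019 with normexp. A_53_P130492, between Olfr1217 and Olfr1219, had 1.29 in tail DNA and -0.31 in embryo DNA, and 0.29 and -0.36 with normexp. A_53_P113447, between Hydin and Vac14, had -0.39 in tail DNA and 1.83 in embryo DNA, and -0.36 and 1.76 with normexp.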

How the results depend on the processing

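The limma count of intergenic probes was 0 under each alternative run for it. In the main setting the fit also called 0 of all 42362 probes, the low X probes included. A count of 0 is thus no measure of the intergenic probes. The difference in median from gene-named probes, 0.0024 in tail DNA and -0.00015 in embryo DNA, became 0.017 and -0.032 with normexp and -0.0073 and -0.027 with the 50 kb minimum, and the embryo median turned from 0.0100 to -0.014 and -0.017. With normexp on the mean and background signals, 0% lay at or below -1 and 0% at or above 1 in tail DNA, and 0.0932% and 0.280% did so in embryo DNA. With it 0 probes passed 0.5 on both arrays in either direction, and 3 low and 7 high embryo windows of 311 passed 0.3. Its offset of 50 draws dim ratios towards 0 by construction, and shares over all autosomal probes or windows were not computed with it. Normexp here also left out the software's dye normalisation, and the part of each of these steps was not tested. The Pearson correlation between the arrays was -0.580 with normexp, against -0.232 without it. Of 45 ratios of named probes at or past 0.3 in size, normexp turned the sign of 10. These were A_53_P105593 (0.012), A_53_P132609 (0.0024), A_53_P141355 (0.066), A_53_P144739 (0.026), A_53_P156060 (0.18) and A_53_P107548 (0.061) in tail DNA, and A_53_P156290 (-0.24), A_53_P148539 (-0.36), A_53_P154660 (-0.16) and A_53_P132609 (-0.019) in embryo DNA; the cause was not tested. A_53_P100178 on chromosome 3 had -0.40 and -1.15 with it. Loess gave 1 high window of 311 on each array, and the deposited ratios 1 high adult window of 311. The filter on dim probes gave 1 low and 1 high adult window of 302, and the 50 kb minimum 2 low embryo windows of 89. Shares over all autosomal windows were not computed for these settings. In the main setting they were 0.272% to 0.347%. Windows of 5 gave 11 low and 18 high in tail DNA and 14 low and 7 high in embryo DNA, or 1.73%, 2.83%, 2.21% and 1.1% of windows, against 1.95%, 1.68%, 2.50% and 1.74% of windows of 5 autosomal probes. By construction, a threshold of 0.5 took in 5.99% low and 5.30% high adult and 4.81% low and 3.54% high embryo probes (all autosomal probes 5.52%, 3.69%, 5.57% and 4.53%), and 0.3 took in 13.1%, 15.1%, 12.8% and 10.7% (13.0%, 12.9%, 14.2% and 12.4%). On both arrays 0.932% were low and 0.932% high at 0.3 (0.978% and 0.773%), and 0% and 0% at 1 (0.00247% and 0.00247%). Normexp with limma called 39 of all probes and 0 intergenic ones. A correction for base composition was not run because no probe sequence was used here, and leaving out either array leaves no residual degrees of freedom and so no test. No paired analysis was possible because each stage has 1 array and the replicate numbers carry no pairing. The part of low signal in these changes was not tested.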
